A study of Homo sapiens with 6 samples.

Results

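The genes described here encode cell cycle regulators, most of them known for a role around G1 and the entry into S phase: the D cyclins CCND1, CCND2 and CCND3, the E cyclins CCNE1 and CCNE2, the atypical cyclins CCNG1, CCNG2 and CCNJ, the phosphatase CDC25A and the kinase WEE1. They were chosen by name, with earlier results of these data known. Their probe sets are those that GEO's platform annotation pairs with 1 of these 10 gene symbols. The array holds 26 such probe sets, of 54613 that are not controls and that cover 19775 named genes. Of the 26, 19 passed the filter on low values and were tested, among them at least 1 for each gene.

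Transcripts were measured in Hep3B, an established human hepatocellular carcinoma line that lacks functional p53. A group of 3 arrays came from a line that stably expresses a tough decoy (TuD), an RNA with exposed microRNA binding sites, against miR-17 (miR-17 TuD). The other 3 arrays came from a line with a control decoy (NC TuD). Both lines were transduced for 48 hours with lentivirus (multiplicity of infection 5) in the presence of polybrene, were selected with puromycin at 1.0 µg/mL, and are pools of the resistant colonies after 2 weeks. The sample descriptions carry the code 72HR on all 6 arrays, PLUSDOX on the miR-17 TuD arrays and NODOX on the NC TuD arrays. No source used here says what the code stands for. Because it follows the decoy, effects of the decoy and of whatever the code records cannot be told apart. Each group is a single pooled line, and the labels do not state whether its 3 samples were grown as separate cultures, so the p-values measure only the spread between samples, and this spread may be technical.

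D cyclins activate the kinases CDK4 and CDK6, which start the phosphorylation of the retinoblastoma protein. E cyclins activate CDK2, which completes that step and helps to fire replication origins, while CDC25A removes and WEE1 adds the inhibitory phosphates on cyclin-dependent kinases. Cyclins G1 and G2 stand apart: they bind regulatory subunits of protein phosphatase 2A, CCNG1 is a target of p53, and CCNG2 is known to be high in cells that have stopped dividing. MicroRNAs of the miR-17 family pair through their seed with target messenger RNAs and repress them, and CCND1 is among the targets reported for miR-17 and miR-20a.

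The mature sequence of miR-17-5p is shown because the decoy is labelled for miR-17, and those of 5 family members because they carry the same seed. The labels do not say whether the decoy also binds these. The sequences are from RefSeq, build GRCh38.p14, written from the 5′ end, and the capitals mark the seed, bases 2 to 8.
hsa-miR-17-5p: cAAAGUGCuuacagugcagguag
hsa-miR-20a-5p: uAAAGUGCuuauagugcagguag
hsa-miR-20b-5p: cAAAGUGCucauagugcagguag
hsa-miR-93-5p: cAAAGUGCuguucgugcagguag
hsa-miR-106a-5p: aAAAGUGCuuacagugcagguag
hsa-miR-106b-5p: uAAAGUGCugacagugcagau
miR-17-5p lies at chr13:91350618-91350640 and miR-20a-5p at chr13:91351072-91351094, both on the plus strand. On the minus strand, miR-93-5p lies at chr7:100093815-100093837, miR-106b-5p at chr7:100094043-100094063, miR-20b-5p at chrX:134169850-134169872 and miR-106a-5p at chrX:134170244-134170266. In the table used, 8 of 2370 mature microRNAs carry this seed. The arrays measure messenger RNA, and the level of the microRNAs was not analysed here.

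All expression values below are log2 values as deposited, and every difference is miR-17 TuD minus NC TuD. Each probe set was tested with limma among 32768 probe sets and called when the adjusted p, by Benjamini-Hochberg over all of them, was under 0.05. The deposited values have a floor of 2.12. In both groups 7 of 7 hepatocyte markers on the array were well above it, endothelial markers lay at 2.43 or less, and blood markers at 3.88 or less. Of 5 fibroblast markers, DCN was at the floor, while COL1A1 reached 13.03 and the log2 values of the 5 summed to 38.1 to 39.1 in the miR-17 TuD arrays and 37.7 to 37.9 in the NC TuD arrays. The 7 hepatocyte markers summed to 82.8 to 83.8 against 88.3 to 88.6. The part of these shifts in the results below was not tested. In RNA from whole cultures, fewer cells in a state and less RNA per cell cannot be told apart.

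Cyclin D1 and cyclin E2 transcripts were called higher with the miR-17 decoy, in probe set calls that each ended in some fits without 1 array. Of the 19 tested probe sets, 3 were called higher, 1 of CCND1 and both of CCNE2, at 1.24-fold to 1.43-fold, and 1 of CCNG2 was called lower, at 1.06-fold lower. Across all tested probe sets 3.35% were called higher and 2.48% lower. In 14 of the 19 the 3 arrays of a group did not overlap those of the other, 9 with the miR-17 TuD arrays above and 5 with them below. Such separation was found upward in 13.5% and downward in 13.3% of all tested probe sets. The rates rise with the level: among 12715 probe sets with a mean above 9, a level chosen after the values were seen, 24.9% were separated upward and 20.3% downward, against 8 and 4 of the 14 member probe sets at that level. Of these probe sets 6.89% were called higher and 4.62% lower, against 3 and 1 of the 14. The median difference of the 19 was 0.13, beside 0 over all tested probe sets, and the median absolute difference was 0.18, beside 0.073. Because the genes were chosen with earlier results of these data known, these shares and medians are a description only.

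**Figure D1:**
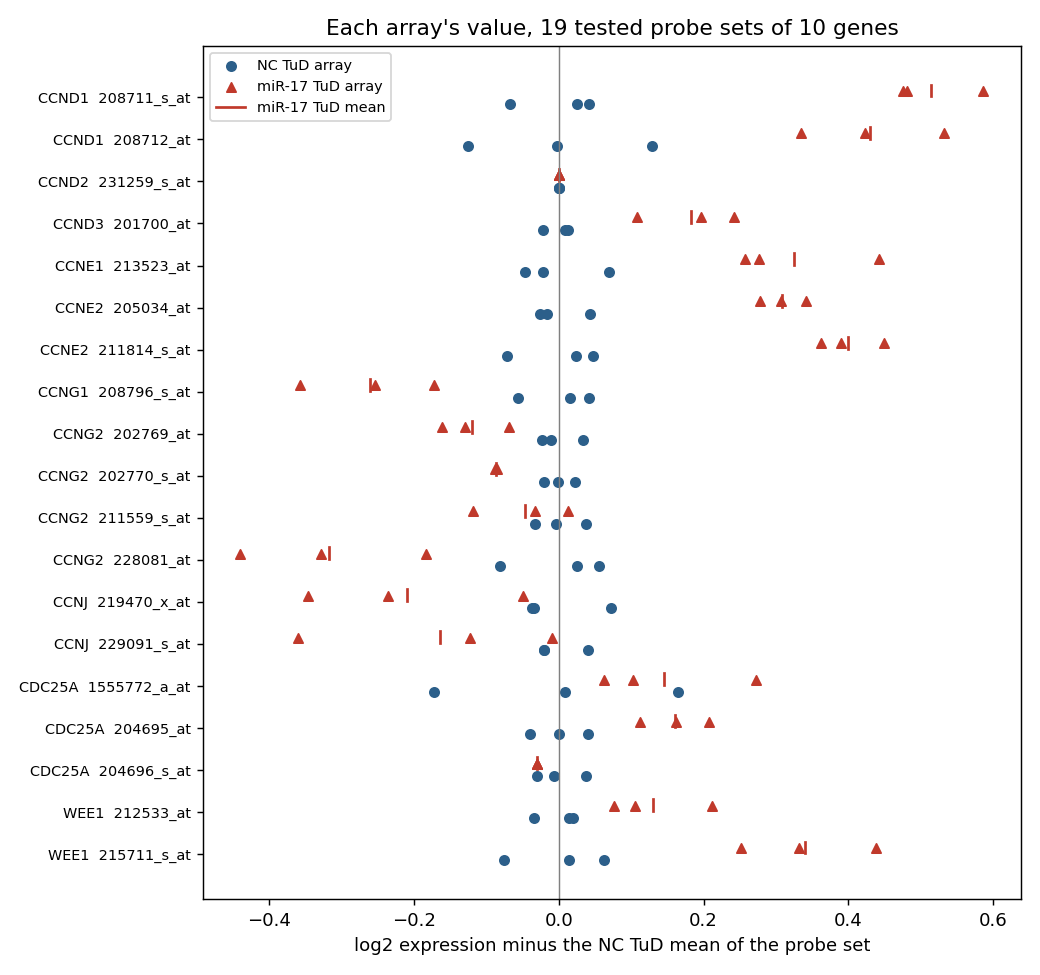
Each row is a tested probe set, and the horizontal axis is the log2 value of an array minus the NC TuD mean of that probe set (circles NC TuD, triangles miR-17 TuD, bars the miR-17 TuD mean, 3 arrays a group). The CCND1, CCND3, CCNE1, CCNE2 and WEE1 triangles lie to the right of their circles, the CCNG1 triangles to the left, and those of CCNJ overlap the circles in 1 of 2 probe sets.

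CCND1, which encodes cyclin D1, had the largest difference of the 10 genes. Its probe set 208711_s_at read 10.15, 10.26 and 10.15 in the miR-17 TuD arrays and 9.61, 9.72 and 9.70 in the NC TuD arrays. The lowest miR-17 TuD array lay well above the highest NC TuD array. The difference was 0.51 (SE 0.047, 1.43-fold), with group levels of 10.19 ± 0.063 and 9.67 ± 0.059 (SD, n = 3) and an adjusted p = 0.0155 in limma. The other probe set, 208712_at, read 11.73, 11.62 and 11.53 against 11.07, 11.19 and 11.32. These groups did not overlap either, but the arrays of each group were spread more widely. The difference of 0.43 (SE 0.087, 95% confidence interval 0.20 to 0.66) did not pass over all probe sets (adjusted p = 0.0652). For the 4 genes with exactly 2 tested probe sets, the responses of the pair were set against each other by an exact permutation test (2-sided, smallest possible p = 0.1, all 4 adjusted p = 0.4), a comparison added after the values were seen. With so few arrays this test can show neither that a pair agrees nor that it differs. The CCND1 pair differed by 0.084 (exact permutation p = 0.4). Dropping an NC TuD array, whichever of the 3, ended the call of 208711_s_at (adjusted p up to 0.0666), with differences of 0.48 to 0.54 over the 6 fits that left out an array.

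CCND2, which encodes cyclin D2, was at the floor or at a constant value. Of its 4 probe sets, 200951_s_at, 200952_s_at and 200953_s_at were at the floor of 2.12 on all 6 arrays. The remaining set, 231259_s_at, read 3.46 on all 6, equal within 0.001, and a constant value gives no measure of a change. CCND3, which encodes cyclin D3, was measured by 201700_at at 12.45, 12.36 and 12.50 against 12.27, 12.23 and 12.26. Every miR-17 TuD array was above every NC TuD array, by a smaller step than for CCND1. The difference was 0.18 (SE 0.038, 95% confidence interval 0.081 to 0.28, adjusted p = 0.072), and the fit that left out miR-17 TuD replicate 2 called it (0.22, adjusted p = 0.0466). The other CCND3 probe set, 1562028_at, was at the floor.

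Both probe sets of CCNE2, which encodes cyclin E2, were called higher. Probe set 205034_at read 12.22, 12.28 and 12.25 with the miR-17 decoy and 11.92, 11.99 and 11.93 with the control decoy. The arrays of a group lay far closer to each other than to those of the other group. This difference of 0.31 (SE 0.027, 1.24-fold) had an adjusted p = 0.0151 in limma, with levels of 12.25 ± 0.032 and 11.94 ± 0.037 (SD, n = 3). Probe set 211814_s_at read 11.50, 11.44 and 11.41 against 11.10, 11.07 and 10.98, again without overlap. Its difference was 0.40 (SE 0.042, 1.32-fold, adjusted p = 0.0194). The responses of the CCNE2 pair differed by 0.091 (exact permutation test, 2-sided p = 0.3). The call of 205034_at ended without NC TuD replicate 1 or 3 (adjusted p up to 0.0679). That of 211814_s_at ended when any 1 array other than miR-17 TuD replicate 3 was dropped (up to 0.0825), and also when weak probe sets were kept in (0.0504).

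CCNE1, which encodes cyclin E1, was measured by 213523_at at 11.74, 11.76 and 11.92 against 11.55, 11.44 and 11.46. The groups did not overlap, and miR-17 TuD replicate 3 was the highest array. The difference of 0.32 (SE 0.064, 95% confidence interval 0.16 to 0.49) was close to that of CCNE2 in size but less even among arrays, and it missed the threshold over all probe sets (adjusted p = 0.0624). The other CCNE1 probe set, 242105_at, was at the floor on all 6 arrays.

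With 1 probe set a gene, the brightest on average, and p-values adjusted over 13949 genes, 3 of the 10 genes were called higher and none lower. Over all genes 6.78% were called higher and 4.60% lower, 1588 genes in all, a number that fell to 374, 374 and 512 without NC TuD replicates 1, 2 and 3. The 3 were CCNE2 (adjusted p = 0.00923 in limma), CCNE1 (adjusted p = 0.0434) and CCND1 (adjusted p = 0.0453, on 208712_at). For CCNE1 and CCND1 the values are those given above, and the fit and the adjustment run over fewer features. Without any 1 array the CCNE2 call was kept at an adjusted p of at most 0.0455, while the CCND1 call ended in all 6 such fits (up to 0.149) and the CCNE1 call in 5, all but the fit without miR-17 TuD replicate 3 (up to 0.147). With no filter on weak genes, CCND1 (adjusted p = 0.0892) and CCNE1 (adjusted p = 0.0855) were not called. At an unadjusted p under 0.05, 6 of the 10 genes were higher and 2 lower, beside 15.5% and 12.3% of all tested genes. CCND3 (adjusted p = 0.0511), CDC25A (adjusted p = 0.0514) and CCNG1 (adjusted p = 0.0545) lay just past the threshold at the gene level. With its probe sets averaged, the CDC25A difference was 0.092 (adjusted p = 0.331 in limma).

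**Figure D2:**
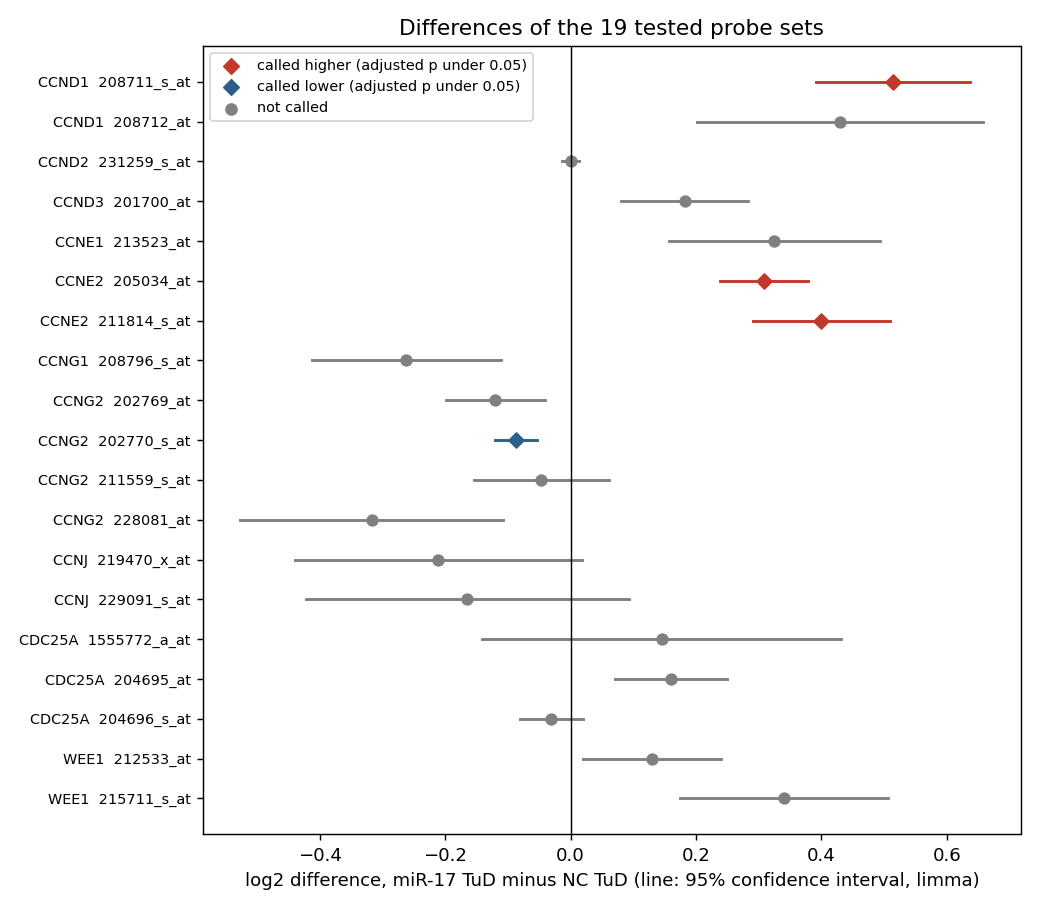
Points are log2 differences, miR-17 TuD minus NC TuD, of the 19 tested probe sets, lines are 95% confidence intervals from limma, and diamonds mark calls at an adjusted p under 0.05. The intervals of CCND1, CCND3, CCNE1, CCNE2, WEE1 and the CDC25A set 204695_at lie above 0, while those of CCNG1 and of 3 CCNG2 probe sets lie below it.

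Differences of the cyclin G genes were negative, and small where they passed the test. CCNG1, which encodes cyclin G1, was measured by 208796_s_at at 11.60, 11.52 and 11.41 with the miR-17 decoy and at 11.81, 11.72 and 11.79 with the control decoy. All miR-17 TuD arrays were below all NC TuD arrays. The difference of -0.26 (SE 0.057, 95% confidence interval -0.41 to -0.11) was 1.20-fold lower and did not pass the threshold (adjusted p = 0.0766 in limma).

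CCNG2, which encodes cyclin G2, was measured by 4 tested probe sets, all with a negative difference, while the remaining set 1555056_at was at the floor. Probe set 202770_s_at was called lower: it read 10.68, 10.68 and 10.69 against 10.79, 10.75 and 10.77, a difference of -0.086 (SE 0.013, adjusted p = 0.0353). The change was small, and the 3 miR-17 TuD arrays were nearly equal, with an SD of 0.0014. This call ended without any 1 of the 6 arrays (adjusted p up to 0.113). It also ended with no filter (0.0756), with the 60th percentile filter (0.096), with quantile normalization (0.0578) and with median scaling, where the difference was -0.064 (adjusted p = 0.265).

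The other CCNG2 sets were not called. Probe set 228081_at read 6.44, 6.33 and 6.59 against 6.83, 6.69 and 6.80, a difference of -0.32 (SE 0.079, adjusted p = 0.101). Its groups did not overlap. Probe set 202769_at read 11.95, 11.98 and 12.04 against 12.14, 12.10 and 12.09, a difference of -0.12 (SE 0.03, adjusted p = 0.102), also without overlap. In 211559_s_at the groups overlapped, at 9.63, 9.50 and 9.58 against 9.61, 9.65 and 9.58, a difference of -0.046 (95% confidence interval -0.15 to 0.061). The differences of the 4 sets ran from -0.32 to -0.046, and their sizes were not tested against each other.

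CCNJ, which encodes cyclin J, was not called on either of its tested probe sets. Probe set 219470_x_at read 9.72, 9.91 and 9.61 with the miR-17 decoy and 9.92, 10.03 and 9.92 with the control decoy. The highest miR-17 TuD array, replicate 2, lay just below the lowest NC TuD array. The difference was -0.21 (95% confidence interval -0.44 to 0.019, adjusted p = 0.257). Probe set 229091_s_at read 9.71, 9.82 and 9.47 against 9.81, 9.87 and 9.81, and these groups overlapped (-0.16, 95% confidence interval -0.42 to 0.093). The 3 miR-17 TuD arrays were spread more widely than the NC TuD arrays in both sets, with SDs of 0.15 and 0.18 against 0.062 and 0.035. The responses of the CCNJ pair differed by 0.046 (exact permutation test, 2-sided p = 0.4). A probe set of suffix x_at can bind related sequences of other genes. The CCNJ set 222888_at stayed within 0.01 of the floor.

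CDC25A and WEE1, which act in opposite directions on the inhibitory phosphates of cyclin-dependent kinases, both had positive differences on their brightest probe sets, short of the threshold. CDC25A set 204695_at read 9.08, 9.03 and 9.13 against 8.88, 8.92 and 8.96, without overlap, a difference of 0.16 (SE 0.034, 95% confidence interval 0.071 to 0.25, adjusted p = 0.0722). Set 1555772_a_at read 8.42, 8.38 and 8.59 against 8.15, 8.33 and 8.49, and its groups overlapped (0.15, 95% confidence interval -0.14 to 0.43). Set 204696_s_at read 6.51 on all 3 miR-17 TuD arrays and on NC TuD replicate 1, equal within 0.001, and 6.53 and 6.57 on the other NC TuD arrays.

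WEE1 set 215711_s_at read 11.34, 11.42 and 11.53 with the miR-17 decoy and 11.10, 11.15 and 11.01 with the control decoy. All 3 miR-17 TuD arrays were above the NC TuD arrays, and the difference was 0.34 (SE 0.063, 1.27-fold, adjusted p = 0.0556). Set 212533_at read 12.71, 12.68 and 12.81 against 12.62, 12.62 and 12.57, again without overlap but with a smaller difference of 0.13 (SE 0.042, 95% confidence interval 0.021 to 0.24, adjusted p = 0.167). The response of the first set exceeded that of the second by 0.21, with no overlap between groups. The exact permutation test gave a 2-sided p = 0.1 (adjusted p = 0.4). This is the smallest p that 3 against 3 arrays allow, so the test cannot decide whether the responses differ.

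**Figure D3:**
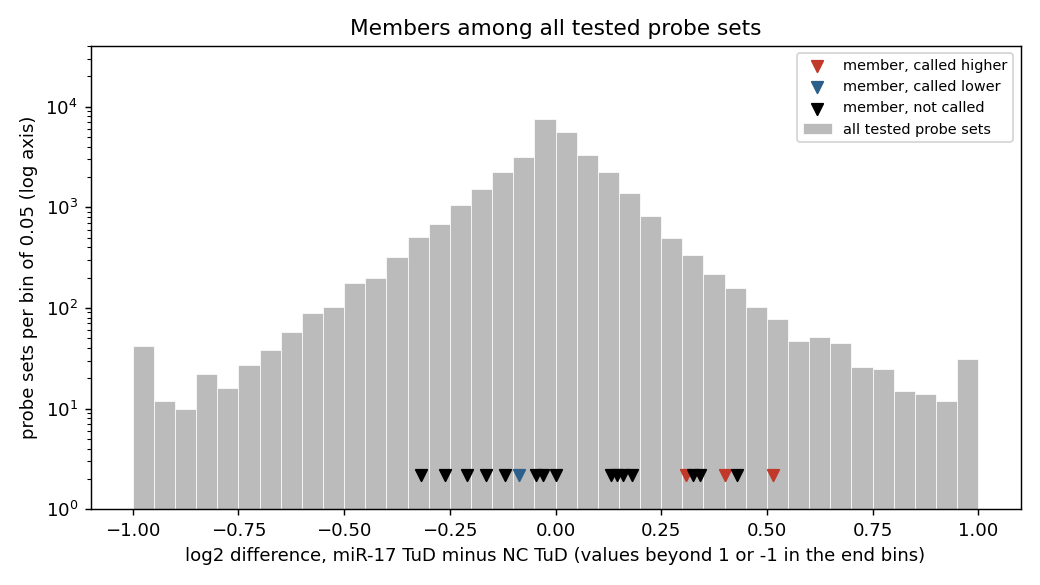
Bars count all 32768 tested probe sets by log2 difference in bins of 0.05 on a log axis, with values beyond 1 or -1 in the end bins, and triangles mark the 19 member probe sets (their height has no meaning). The members lie between -0.32 and 0.51, inside the range of the other probe sets, with 3 called higher and 1 called lower.

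Calls among the members depended on which arrays were used, with fewer when an NC TuD array was dropped. With NC TuD replicate 1, 2 or 3 left out, the number of member probe sets called was 0, 1 and 0, and with miR-17 TuD replicate 1, 2 or 3 left out it was 2, 3 and 3. At an unadjusted p under 0.05 in limma, 9 of the 19 sets were higher and 4 lower with all arrays, beside 11.3% and 10.8% of all tested probe sets. Over all probe sets the number called fell from 1910 to 145, 191 and 234 without NC TuD replicates 1, 2 and 3. No tested member set whose values differed between arrays changed the direction of its difference in any of these 6 fits. Under quantile normalization 6 member sets were called higher and 0 lower, beside 4.12% and 3.40% of all tested probe sets. Under median scaling 8 were called higher and 0 lower, and calls over all probe sets rose too, to 5.65% higher and 3.29% lower. CCNE1, WEE1 set 215711_s_at and CCND1 set 208712_at were called under both scalings.

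**Figure D4:**
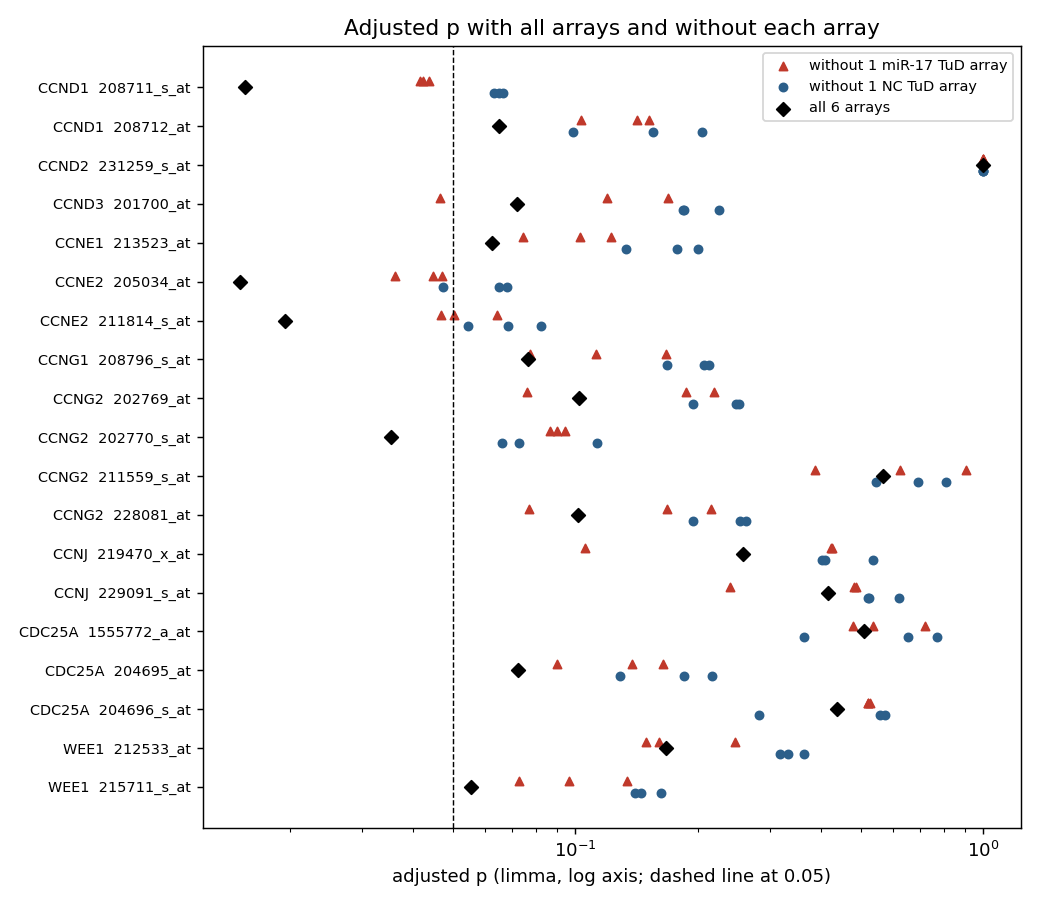
The horizontal log axis is the adjusted p in limma of each tested probe set with all 6 arrays (diamonds), without 1 miR-17 TuD array (triangles) or without 1 NC TuD array (circles), and the dashed line marks 0.05. The CCND1 set 208711_s_at and both CCNE2 sets start at 0.0155, 0.0151 and 0.0194, and nearly all of their circles lie to the right of the line.

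Among the other genes of the pathway, taken from lists of 87 genes beyond the members, 80 were tested. Of these, 10 were called higher and 3 lower, beside 6.78% and 4.60% of all tested genes. The counts of each list below are to be read beside the same shares. The median difference over the 80 genes was 0.008, beside 0.00056 over all tested genes. CDK4, the kinase partner of the D cyclins, rose by 0.13 (1.10-fold, levels 13.69 ± 0.024 and 13.56 ± 0.019, SD, n = 3; limma, adjusted p = 0.018), the only call among 8 tested kinases and partners of G1 and S. CDK6 (-0.17, adjusted p = 0.255) and CDK2, the partner of the E cyclins (0.11, adjusted p = 0.368), were not called. CDK4 was no longer called once an NC TuD array, whichever of the 3, was dropped (up to 0.0668).

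Inhibitors of cyclin-dependent kinases moved in both directions. Of 9 tested inhibitors and pocket proteins, 2 were higher and 1 lower, beside 6.78% and 4.60% of all tested genes. RB1, which encodes the retinoblastoma protein, was weak on its brightest probe set, at 3.37 with the miR-17 decoy and 3.45 with the control decoy. The related RBL1 (8.43 and 8.47) and RBL2 (9.52 and 9.41) were higher in level, and none of the 3 was called. Whether the changes described here act through the retinoblastoma protein was not tested. CDKN1A, which encodes p21, rose 1.53-fold (adjusted p = 0.00736 in limma), with levels of 13.16 ± 0.071 and 12.55 ± 0.046 (SD, n = 3), and CDKN2A, a locus for the CDK4 inhibitor p16, rose 1.13-fold (adjusted p = 0.0219). CDKN1B, which encodes the CDK2 inhibitor p27, fell by 0.29 on the log2 scale (11.99 ± 0.038 against 12.28 ± 0.033, adjusted p = 0.0103). SKP2, the F-box protein that targets p27 for degradation, also fell, by 0.25 (adjusted p = 0.0268). The CDKN2A and SKP2 values come from x_at probe sets, a type that can bind related sequences of other genes. With s_at and x_at probe sets left out, CDKN2A was still called (0.24, adjusted p = 0.0334), and SKP2 had no value in that fit. The CDKN1A and CDKN1B calls held without any 1 of the 6 arrays (adjusted p up to 0.0415 and 0.0499), SKP2 lost its call when miR-17 TuD replicate 1 or an NC TuD array was dropped (up to 0.0968), and CDKN2A lost its call with any array but NC TuD replicate 2 dropped (up to 0.0649).

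Of 14 tested genes for the turnover of these proteins, 1 rose and 2 fell, beside 6.78% and 4.60% of all tested genes. FBXW11, an F-box protein that recognises CDC25A and WEE1, rose by 0.14 (adjusted p = 0.016 in limma), a call lost when the array dropped was NC TuD replicate 2 or 3, or miR-17 TuD replicate 2 (up to 0.0713), and when its probe sets were averaged (0.11, adjusted p = 0.077). GSK3B, a kinase that marks cyclin D1 and cyclin E for degradation, had a difference of -0.29 on its brightest probe set (adjusted p = 0.0325). With its probe sets averaged the GSK3B difference was -0.084 and was not called (adjusted p = 0.0813), and among the fits that dropped an array only that without NC TuD replicate 3 called it (otherwise up to 0.114). FBXW7, the F-box protein of cyclin E (-0.27, adjusted p = 0.117), and FBXO31, an F-box protein of cyclin D1 (0.62, adjusted p = 0.0554), were not called. Among 8 tested CDC25 and WEE1 relatives and checkpoint kinases, CDC25B, a CDC25 phosphatase of G2, rose by 0.22 (adjusted p = 0.0463), a call kept only when the array dropped was miR-17 TuD replicate 1 (otherwise up to 0.155).

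Of 9 tested partners of cyclin G, GAK, the cyclin G-associated kinase, rose by 0.18 (adjusted p = 0.0416 in limma) and PPP2R1A, a scaffold subunit of protein phosphatase 2A, rose by 0.13 (adjusted p = 0.0426). The GAK call ended without any 1 array but miR-17 TuD replicate 1 (up to 0.13) and with its probe sets averaged (0.17, adjusted p = 0.0999), and PPP2R1A lost its call when an NC TuD array or miR-17 TuD replicate 1 was dropped (up to 0.139). At an unadjusted p under 0.05 in limma, 2 of the 14 tested cyclins outside the group were higher and 3 lower. The shares over all tested genes were 15.5% and 12.3%, and none of the 14 cyclins was called. Their largest differences were those of CCNL1 (-0.28, adjusted p = 0.138) and CCNT2 (-0.27, adjusted p = 0.0504), cyclins of RNA processing and transcription. Of 18 tested E2F-inducible G1/S genes beyond CCNE1, CCNE2 and CDC25A, 3 rose and none fell, beside 6.78% and 4.60% of all tested genes. The 3 were ORC1, a subunit of the origin recognition complex (0.38, adjusted p = 0.0445), E2F1, a transcription factor of G1/S genes (0.33, adjusted p = 0.0255), and RRM2, a subunit of ribonucleotide reductase (0.17, adjusted p = 0.0198). The ORC1 call ended without any 1 of the 6 arrays (up to 0.137), that of E2F1 without any 1 but NC TuD replicate 3 (up to 0.10), and RRM2 lost its call when an NC TuD array or miR-17 TuD replicate 2 was dropped (up to 0.0805). At an unadjusted p under 0.05, 5 of the 18 were higher and 1 lower, beside the 15.5% and 12.3% of all tested genes given above. MCM2 (0.062, adjusted p = 0.413) and PCNA (0.0006, adjusted p = 1) were not called.

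**Figure D5:**
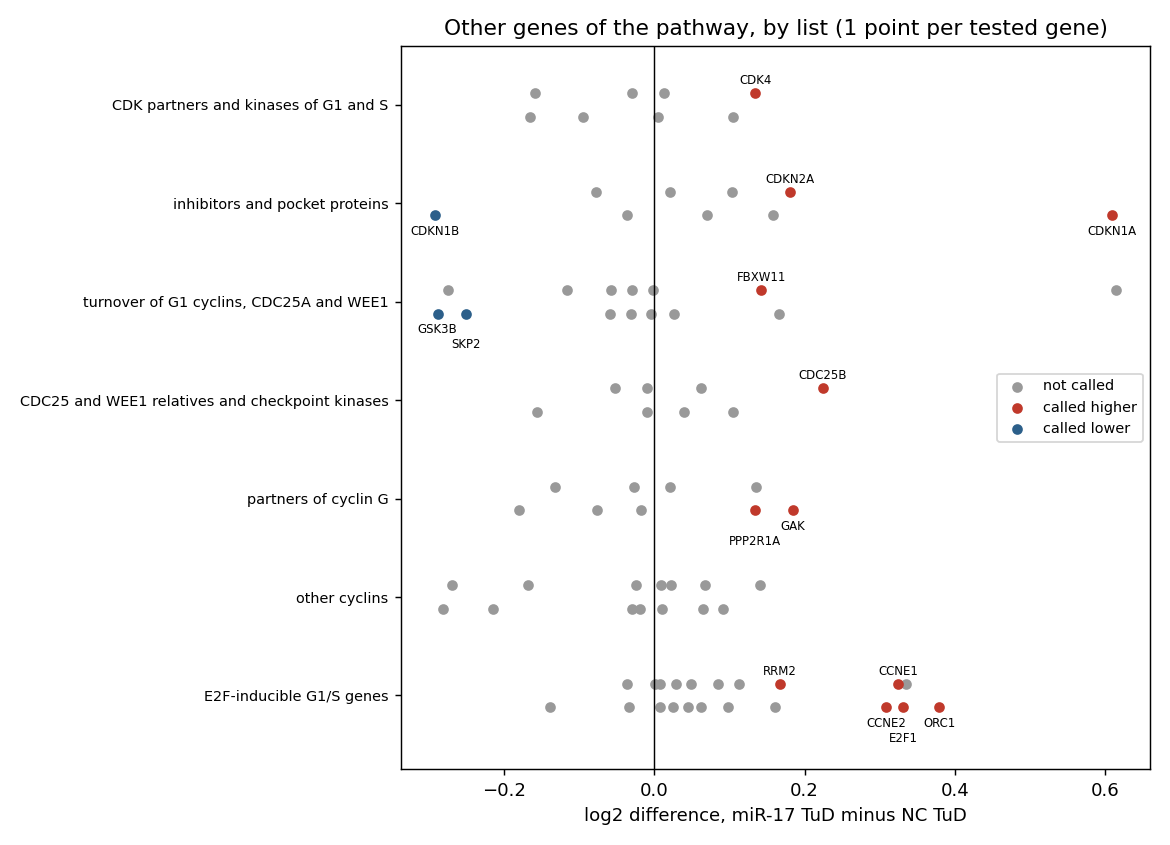
Each point is a tested gene, placed by its log2 difference, miR-17 TuD minus NC TuD, in the list on the vertical axis, with called genes coloured and named, and the members CCNE1, CCNE2 and CDC25A kept in the E2F-inducible list. Called genes lie on both sides of 0 among the inhibitors (CDKN1A at 0.61, CDKN1B at -0.29), and no gene was called among the other cyclins.

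The genes whose values over the 6 arrays were most like those of CCND1 (208712_at) were CARD8 (Pearson r = 0.996), PGAM5 (r = 0.995) and PNO1 (r = 0.994), given as a description. The points share the difference between groups, which was 0.31, 0.26 and 0.22 for these genes, and 97 of 13228 genes compared had an r above 0.95.

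Promoter windows of 300 bases, 250 before and 50 after the start, were matched from RefSeq (GRCh38.p14) for 6 of the 10 genes, 9 windows in all. CCND1, CCND2, CCNE2 and WEE1 had no window, so the search does not cover the genes with probe sets called higher. The E2F motif cores TTCCCGC and TTGGCGC were searched on both strands. They were found in 9.23% of 35116 windows of the same length and in 1 of the 9 member windows, that of CDC25A, which holds TTGGCGC on both strands in overlapping copies that begin 43 and 40 bases before the start. The 250 bases before the start are shown for CDC25A (chr3:48188418-48188667, minus strand), which was not called and was chosen for its match, with the motif in capitals. They are also shown for CCNE1 (chr19:29811741-29811990, plus strand), which was called at the gene level but not by probe set, and has no match.
CDC25A: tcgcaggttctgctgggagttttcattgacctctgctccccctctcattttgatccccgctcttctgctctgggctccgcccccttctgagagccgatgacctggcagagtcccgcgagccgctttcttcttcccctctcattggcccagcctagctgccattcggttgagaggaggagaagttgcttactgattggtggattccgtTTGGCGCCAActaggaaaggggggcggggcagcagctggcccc
CCNE1: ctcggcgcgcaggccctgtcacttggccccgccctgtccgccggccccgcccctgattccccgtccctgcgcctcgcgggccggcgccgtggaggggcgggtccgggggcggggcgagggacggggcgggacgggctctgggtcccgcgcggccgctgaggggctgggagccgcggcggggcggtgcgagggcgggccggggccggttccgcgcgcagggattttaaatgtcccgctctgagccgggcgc
A match is a description of the letters and not of binding. Only exact copies of the cores were searched, so a window without a match is not shown to lack an E2F site. The GC content of the 300-base windows was 61% for CDC25A and 81% for CCNE1.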

How the data were processed

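Total RNA of 6 Hep3B samples was hybridised to Affymetrix HG-U133 Plus 2 arrays. The deposited values are on the log2 scale, for every probe set on every array. RMA and GCRMA are named in the submitters' processing notes, without version or role. Array medians lie between 2.75 and 2.78, and the shared floor hides changes of weak transcripts. Values were used as deposited.

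Control probe sets (62 of 54675) and probe sets with a mean at or under the 40th percentile (2.14) were left out. The test of miR-17 TuD against NC TuD was limma's (version 3.58.1, R 4.3.3; eBayes with no trend after lmFit, 2-sided p-values, Benjamini-Hochberg), checked on simulated data, and also with 1 probe set per gene. Symbols come from GEO's platform annotation, updated through Entrez identifiers against RefSeq (GRCh38.p14, 41037 matched). All probe sets of the 10 genes are described. Of the lists, called genes are named, at most 3 a direction. Uncalled list genes named with values were chosen after their values were seen. Members and lists were chosen with earlier results of these data known. Alternatives were 2 other scalings, 2 filters, 2 variance settings, a replicate block, each array left out and, for genes, 2 ways of joining probe sets. The number of arrays limits the precision.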

Additional observations from a re-analysis of the deposited data

How the results depend on the processing

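With all arrays, 4 member probe sets, 3 member genes and 13 pathway genes were called. Leaving out each array in turn gave 0 to 3, 1 to 2 and 3 to 10. The other counts that moved by over 1.5 times were as follows. Median scaling gave 8 probe sets and 6 genes, all higher. Quantile normalization gave 6 genes, 4 higher and 2 lower. The 60th percentile filter gave 10 of 18 probe sets, 8 higher and 2 lower, and 6 of 9 genes, 5 higher and 1 lower. Calls rose over all genes too. Of 13949 genes, 2143 were called with median scaling and 1855 with quantile normalization, against 1588. The 60th percentile filter called 2104 of 10773 genes. With no filter there were 2 probe sets, 1 gene and 6 pathway genes, and with s_at and x_at probe sets left out 1 gene of 7 and 7 pathway genes of 59. With array weights the number of member genes called stayed at 3, but 2 were higher and 1 lower. CCND1 was then not called (adjusted p = 0.0558 in limma), and CCNG1 was called lower (-0.25, adjusted p = 0.0367). The replicate numbers are not stated to pair samples. Deviations of same-numbered arrays correlated at 0.04, 0.10 and 0.11, each higher than with other numbers. With the replicate block, limma called 0 member probe sets (8 higher and 4 lower at an unadjusted p under 0.05), 1 gene and 6 pathway genes. The differences stayed the same. The SE fell for CCND1 208711_s_at (0.047 to 0.029), CCNE2 205034_at (0.027 to 0.0094) and CCNE2 211814_s_at (0.042 to 0.018), with adjusted p of 0.0541 to 0.0562. For CCNG2 202770_s_at the SE did not fall (0.0126 to 0.0130, adjusted p = 0.107). Over all probe sets the count was 554 of 54613 with no filter and 3271 of 21845 with the 60th percentile filter. Of 32768 probe sets, it was 2930 with median scaling and 0 with the replicate block, against 1910. Over all genes it was 789 with no filter and 822 with the replicate block, against 1588. With no filter the calls of SKP2 (0.0547), GSK3B (0.0658), CDC25B (0.0894), GAK (0.0809), PPP2R1A (0.0803), ORC1 (0.0877) and E2F1 (0.0532) ended, by adjusted p in limma. None of the member probe sets, member genes or called pathway genes reversed direction with a call under these alternatives, which were not run for uncalled pathway genes. Background correction could not be changed on deposited log2 values, and weak or floored probe sets such as those of CCND2 limit what can be seen.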
